A study of Mus musculus with 6 samples.

Results

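The mitochondrial ribosomal protein genes were taken as every row of the expression table whose symbol starts with Mrpl or Mrps and a number, with processed pseudogene rows (ending in -ps) left out. This gave 76 genes of 23235 rows, 47 with an Mrpl symbol for the large subunit and 29 with an Mrps symbol for the small subunit; no -ps row was present. The RNA came from C57BL/6 mice, from oocytes at the fully-grown GV (germinal vesicle) stage, arrested in meiotic prophase. One group carried a knock-out of Rtcb (KO), the RNA ligase that joins tRNA exons after intron removal and rejoins cleaved Xbp1 mRNA, and the other was wild type (WT). Each group had 3 libraries, each from 10 oocytes collected 44 to 48 h after priming with PMSG, a gonadotropin that drives follicle growth. The titles of all libraries carry the tag 6W, which the labels do not explain; the sources used here do not give the promoter or cell type that drove the deletion or the number of animals, and p-values reflect variation among the libraries alone, which may be technical.

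The mitochondrial ribosome translates the few mRNAs of mitochondrial DNA, all of which encode subunits of the oxidative phosphorylation machinery. Its rRNAs come from mitochondrial DNA, and its proteins are encoded in the nucleus, made in the cytosol and imported. Some of these proteins have counterparts in bacterial ribosomes, and others were added in mitochondria. The small subunit reads the mRNA, while the large subunit forms peptide bonds and passes the new chain through its exit tunnel to the inner membrane. Oocytes hold a very large store of mitochondria that is passed to the embryo.

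Levels are the deposited FPKM (fragments scaled by transcript length and library size) after the authors' scaling to ERCC spike-in RNA, and read depth per library is unknown. That scaling amounts to one factor per genotype, with a KO to WT ratio of 0.667, so a gene with the same unscaled FPKM in both groups appears lower in KO. Fold changes are therefore given as deposited and, where it changes a call, after rescaling to equal totals, by median ratios, or with the genotype factors removed. They were computed from log2(FPKM + 1), so changes of low genes are understated, and were tested with limma across 12029 genes that averaged 1 FPKM or more, at a Benjamini-Hochberg adjusted p under 0.05. Rtcb, listed as D10Wsu52e, had 3.82, 2.62 and 2.49 FPKM in KO and 136, 133 and 113 FPKM in WT, in accord with the labels. The 10 oocyte markers were all present, summing to 19443 to 20784 FPKM in KO and 27807 to 29797 FPKM in WT. Of 14 granulosa and cumulus cell markers, 7 had a mean of at least 1 FPKM, none was at 0 in every library, and the list summed to 48.3 to 63.3 FPKM in KO and 60.9 to 67.9 FPKM in WT; the part of these cells in the results was not tested. These sums hide markers that went opposite ways. Figla (oocyte) and Nr5a2 (granulosa) were higher in every KO library than in every WT library, while Gdf9 (oocyte) and Cyp19a1 (granulosa) were lower. In such bulk samples, fewer cells of a type and less RNA per cell cannot be told apart.

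All 76 genes were expressed above the filter, and most stood well above the typical gene. Their median lay at 109, 127 and 107 FPKM in the 3 KO libraries and at 139, 154 and 166 FPKM in the 3 WT libraries. The median of all tested genes was 13.9, 12.7 and 13.6 FPKM in KO and 19.3, 18.9 and 18.5 FPKM in WT. The genes made up 1.38, 1.46 and 1.41% of all FPKM in KO and 1.19, 1.29 and 1.37% in WT, so the KO shares all lay above the WT shares. Their levels spanned a wide range, with KO means of 4.17 FPKM (Mrpl19) to 858 FPKM (Mrps36) and WT means of 2.70 FPKM (Mrps34) to 969 FPKM (Mrpl48). The order of the genes was alike in the groups, with a Spearman rho of 0.96 between KO and WT means across 76 genes, which are not independent replicates. The median coefficient of variation between replicates was 8.61% in KO and 9.64% in WT.

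Knock-out oocytes had lower deposited levels of many of these genes, at a share close to that of all genes. Of the 76 genes, 38 were lower in KO, 5 were higher and 33 did not pass the test; among all tested genes 54.0% were lower and 9.29% were higher. The median log2 fold change was -0.30 over the 76 genes and -0.47 over all tested genes. With the genotype factors removed the direction turned, to 37 genes higher in KO and 5 lower, beside 25.7% higher and 18.0% lower among all tested genes, and medians of 0.28 for the 76 genes and 0.043 for all genes. Equal totals gave 24 higher and 8 lower (19.0% and 25.8% of all genes), and median ratios gave 32 higher and 5 lower (23.4% and 21.2%). Under each of these scalings the median of the 76 genes lay above that of all genes. The 76 genes have short coding parts, with a median of 582 bases against 1374 across 10188 tested genes with a value. Across those tested genes, log2 fold change as deposited fell with coding length (Spearman rho -0.28). The part of coding length in the difference between the 76 genes and all genes was not tested. Deposited values did not overlap between groups for 47 genes, 7 with every KO library above every WT library (10.2% of all genes) and 40 with every KO library below (57.5% of all genes). With the factors removed, 41 lay above (31.7% of all genes) and 6 below (24.7%). Some genes kept their call under all 4 scalings. Mrpl15, Mrpl20, Mrpl43, Mrps26 and Mrps34 were higher in KO (9.23% of all genes), and Mrpl37, Mrpl39, Mrps2, Mrps5 and Mrps22 were lower (18.0% of all genes). The 4 scalings are not independent checks of these calls, because each rescaling moved the log2 fold changes of these genes upward. The genes higher under all 4 are the 5 called higher as deposited (9.29% of all genes). Those lower under all 4 are the 5 called lower with the factors removed (18.0% of all genes). Mrpl14, Mrpl19, Mrpl21, Mrpl22 and Mrpl42 passed under none of the 4. Mrpl28, Mrpl44, Mrpl46 and Mrps17 passed in opposite directions, as lower with deposited values but as higher once the factors were removed.

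**Figure D1:**
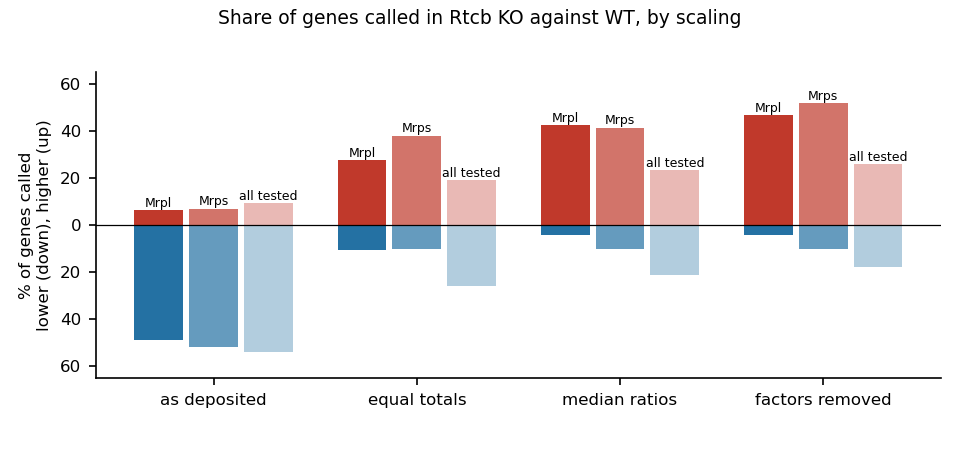
Genes called higher and lower in KO (limma adjusted p under 0.05) among the 47 Mrpl and 29 Mrps genes under 4 scalings, in percent (bars up for higher, down for lower), beside all 12029 tested genes. As deposited, 38 of the 76 genes were lower and 5 higher, while with the genotype factors removed 5 were lower and 37 higher.

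Of the 10 genes that kept their call, 8 had a promoter window (not Mrpl15 or Mrps34), and 5 of these 8 hold in their promoters one of 3 short motifs typical of nuclear genes for mitochondrial proteins, and these windows are shown to set genes that rose beside genes that fell. The windows run from 250 bases before to 50 after the transcript start, from RefSeq on GRCm38.p6, 5' to 3' on the gene's strand, with capitals marking the motif, read on either strand. Mrps26 (chr2:130563507-130563806, plus strand), Mrps22 (chr9:98601630-98601929, minus strand) and Mrpl43 (chr19:45006393-45006692, minus strand) hold the ETS-family motif, Mrpl37 (chr4:107066817-107067116, minus strand) the YY1 motif and Mrpl39 (chr16:84735195-84735494, minus strand) the NRF1 motif. The windows of Mrpl20, Mrps2 and Mrps5 hold none of these letters. Mrps26 and Mrpl43 rose, and Mrps22, Mrpl37 and Mrpl39 fell.
Mrps26: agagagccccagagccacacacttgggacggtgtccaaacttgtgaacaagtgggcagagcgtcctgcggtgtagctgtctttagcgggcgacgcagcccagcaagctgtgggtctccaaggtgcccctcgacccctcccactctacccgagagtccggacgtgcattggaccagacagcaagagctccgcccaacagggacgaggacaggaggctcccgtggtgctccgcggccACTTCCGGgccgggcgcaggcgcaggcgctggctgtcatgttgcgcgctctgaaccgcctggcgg
Mrpl43: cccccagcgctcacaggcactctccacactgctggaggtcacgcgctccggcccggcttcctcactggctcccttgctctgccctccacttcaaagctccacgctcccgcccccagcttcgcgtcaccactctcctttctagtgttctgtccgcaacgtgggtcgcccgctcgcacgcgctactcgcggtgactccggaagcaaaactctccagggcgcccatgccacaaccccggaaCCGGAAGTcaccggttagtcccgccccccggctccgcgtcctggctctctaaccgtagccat
Mrps22: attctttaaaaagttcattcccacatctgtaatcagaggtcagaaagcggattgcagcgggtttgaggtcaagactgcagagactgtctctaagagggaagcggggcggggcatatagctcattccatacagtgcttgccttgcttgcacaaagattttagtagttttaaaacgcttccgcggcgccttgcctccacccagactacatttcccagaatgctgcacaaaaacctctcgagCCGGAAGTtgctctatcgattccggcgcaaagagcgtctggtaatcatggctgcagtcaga
Mrpl37: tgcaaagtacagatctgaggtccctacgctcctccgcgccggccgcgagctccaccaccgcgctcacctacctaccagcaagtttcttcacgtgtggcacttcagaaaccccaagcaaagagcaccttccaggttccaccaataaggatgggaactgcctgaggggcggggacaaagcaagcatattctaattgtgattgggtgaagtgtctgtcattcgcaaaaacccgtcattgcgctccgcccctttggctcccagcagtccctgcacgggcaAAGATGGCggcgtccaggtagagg
Mrpl39: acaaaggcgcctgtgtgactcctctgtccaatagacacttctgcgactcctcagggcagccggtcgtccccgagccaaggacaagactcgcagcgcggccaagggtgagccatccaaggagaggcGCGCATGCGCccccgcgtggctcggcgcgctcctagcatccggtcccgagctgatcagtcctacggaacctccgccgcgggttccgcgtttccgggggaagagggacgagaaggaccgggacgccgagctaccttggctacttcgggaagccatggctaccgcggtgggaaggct

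The genes that rose in KO under every scaling were led by Mrps34, a mitochondria-specific protein of the small subunit, needed in mice for stable small-subunit rRNA. It had 11.0, 9.78 and 7.38 FPKM in KO, against 2.61, 3.18 and 2.31 FPKM in WT. Every KO value was more than the highest WT value, and the change was 1.48 on the log2 scale (SE 0.18, adjusted p = 0.000345). It is the lowest gene of the small subunit, and in GENCODE vM21 its exons share 763 bases with Nme3 on the same strand and 1309 bases with Mapk8ip3 on the other, so reads of these genes may not be told apart. The same limit holds for others, as 20 of the 76 genes share at least 100 exonic bases with 1 other protein-coding gene. Among them are Mrpl19 (1962 bases with Gcfc2), Mrpl48 (708 with Rab6a) and Mrps30 (623 with B430218F22Rik). Nme3 had 118 ± 17.3 FPKM in KO and 140 ± 14.0 FPKM in WT (SD, n = 3 each; limma adjusted p = 0.131), and Mapk8ip3 fell by 0.89 on the log2 scale. Mrps26, another mitochondria-specific protein of the small subunit, had 107.6, 88.6 and 103 FPKM in KO and 49.5, 48.5 and 43.2 FPKM in WT, a log2 change of 1.07 (SE 0.11, adjusted p = 0.000203). Its groups lay far apart relative to their spread, at a KO to WT ratio of means of 2.12, and its promoter window, printed above, holds the ETS motif.

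In the large subunit 3 genes rose. Mrpl20, counterpart of a bacterial protein that binds the large rRNA early in assembly, had 77.7, 56.9 and 80.3 FPKM in KO and 43.5, 38.6 and 25.8 FPKM in WT. Its log2 change was 0.99 (SE 0.21, adjusted p = 0.00406), with no overlap between groups. Mrpl15, counterpart of bacterial L15, had 39.6, 28.4 and 33.0 FPKM in KO and 24.2, 27.4 and 19.4 FPKM in WT, a log2 change of 0.49 (SE 0.17, adjusted p = 0.0321). The lowest KO value stood just above the highest WT value, and the call was lost without KO replicate 1, KO replicate 3, WT replicate 1 or WT replicate 3, where adjusted p reached up to 0.112. Mrpl43, a mitochondria-specific protein, had 65.3, 61.2 and 53.9 FPKM in KO and 46.4, 47.1 and 43.9 FPKM in WT, a log2 change of 0.38 (adjusted p = 0.0128, and 0.0548 without KO replicate 1). It shares 507 exonic bases with the gene of the mitochondrial helicase Twinkle (listed as Peo1) on the other strand, which fell by 0.79 on the log2 scale.

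**Figure D2:**
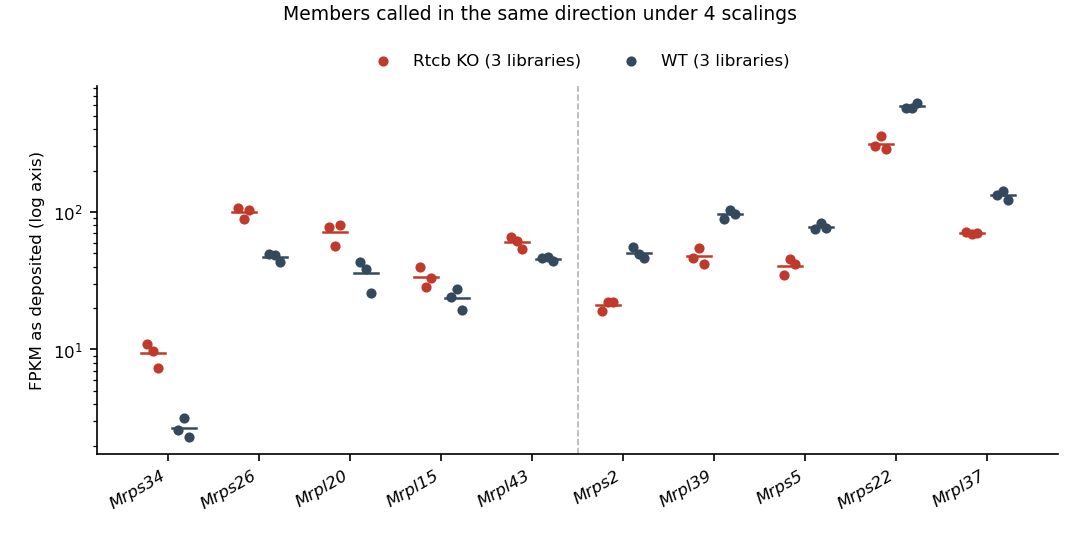
FPKM by library (log axis) of genes called in the same direction under all 4 scalings, KO left of WT, with lines at group means. Mrps34 lies at 7.38 to 11.0 FPKM in KO and 2.31 to 3.18 FPKM in WT, and Mrps2 at 19.1 to 22.3 FPKM in KO and 46.0 to 55.6 FPKM in WT.

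Among genes that fell under every scaling, Mrps2, counterpart of bacterial S2, moved furthest. It had 19.1, 22.3 and 22.1 FPKM in KO and 55.6, 49.2 and 46.0 FPKM in WT, a log2 change of -1.21 (SE 0.12, adjusted p = 0.00018). KO values were tight and lay below every WT value. Mrps5, counterpart of the bacterial S5 protein at the mRNA entrance, had 34.6, 45.5 and 41.8 FPKM in KO and 75.0, 82.9 and 76.5 FPKM in WT (log2 change -0.93, adjusted p = 0.000412). Mrps22, a mitochondria-specific protein whose human gene is mutated in ovarian failure and in mitochondrial disease, had 301, 357 and 286 FPKM in KO and 574, 576 and 620 FPKM in WT. Its log2 change was -0.91 (SE 0.10, adjusted p = 0.000264), and it was the most abundant of these 5 genes in every library. Mrpl39, a large-subunit protein that resembles a tRNA synthetase, had 46.5, 54.9 and 41.7 FPKM in KO and 89.6, 102.7 and 96.1 FPKM in WT (log2 change -1.003, adjusted p = 0.000321). Mrpl37, also specific to mitochondria, had 71.0, 69.7 and 70.2 FPKM in KO and 133, 143 and 122 FPKM in WT (log2 change -0.90, adjusted p = 0.000193). Its KO libraries were almost equal, with an SD of 0.659 FPKM.

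The other large-subunit genes are given by place in the ribosome, in groups of 4 to 6 genes whose counts stand beside the 54.0% of all tested genes that fell. At the stalks, which recruit translation factors and release tRNA, 3 of 4 genes fell, led by Mrpl1 (counterpart of the L1 stalk protein) with 27.9, 34.6 and 27.4 FPKM in KO and 47.1, 53.0 and 59.0 FPKM in WT. Its log2 change was -0.81 (adjusted p = 0.00118), but -0.23 with the genotype factors removed, where it no longer passed. Mrpl12, the stalk protein that binds factors in many copies, had 467, 429 and 486 FPKM in KO and 438, 497 and 503 FPKM in WT. Its groups overlapped and the log2 difference was -0.06 (adjusted p = 0.612), turning to 0.53 and passing with the factors removed. At the central protuberance, 3 of 5 genes fell, among them Mrpl38 with 52.3, 66.9 and 59.2 FPKM in KO and 103.5, 99.2 and 112 FPKM in WT (log2 change -0.81, adjusted p = 0.00056, and -0.23 without a call when the factors were removed). Mrpl48, also of the protuberance and the most abundant large-subunit gene, had 668, 793 and 721 FPKM in KO and 823, 1030 and 1053 FPKM in WT. It fell by 0.41 on the log2 scale (adjusted p = 0.0178), a call lost without KO replicate 1, KO replicate 3, WT replicate 2 or WT replicate 3 and a value of 0.18 with the factors removed. Of 6 genes at the exit tunnel 3 fell and none rose; Mrpl45, which ties the ribosome to the inner membrane, had 59.0, 47.1 and 53.4 FPKM in KO and 60.5, 59.1 and 62.4 FPKM in WT (adjusted p = 0.148), its groups almost touching. Of 4 genes near the catalytic centre 2 fell and none rose. With the genotype factors removed no gene of these 4 places was lower, and 1 stalk, 3 protuberance, 2 exit tunnel and 2 catalytic centre genes were higher, Mrpl45 among them. Among all tested genes 18.0% were then lower and 25.7% higher.

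Mrpl44, which carries a ribonuclease III-like fold, had 54.8, 55.1 and 55.7 FPKM in KO and 69.5, 70.0 and 60.7 FPKM in WT (log2 change -0.27, adjusted p = 0.0386). All KO values lay below the WT values, yet the call was lost without any one of 5 libraries, with adjusted p up to 0.126 (all but WT replicate 3), and the sign turned to 0.31 with the factors removed. Mrpl19, the least abundant large-subunit gene, had 3.90, 3.97 and 4.63 FPKM in KO and 5.44, 4.10 and 6.97 FPKM in WT and did not pass (adjusted p = 0.184). The 17 other large-subunit genes that fell had log2 changes of -0.80 to -0.24 and KO means of 17.6 to 524 FPKM (WT means of 26.4 to 727 FPKM). The 18 others that did not pass had log2 differences of -0.34 to 0.30.

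In the small subunit, 5 head proteins around the mRNA channel were grouped, all with bacterial counterparts. Mitochondria-specific proteins of the head are not in this group. Of 10 mitochondria-specific small-subunit genes at any site, 7 fell and 2 rose as deposited (54.0% and 9.29% of all tested genes). Of the 5 grouped head proteins, 1 passed the test as deposited, lower in KO, beside 54.0% of all tested genes. With the genotype factors removed 4 of 5 were higher and 0 lower, beside 25.7% and 18.0% of all genes. With equal totals and with median ratios 3 of 5 were higher, beside 19.0% and 23.4% of all genes. Mrps7, a head protein that nucleates that domain in bacteria, had 203, 189 and 201 FPKM in KO and 193, 206 and 207 FPKM in WT, with a log2 difference of -0.03 (adjusted p = 0.732). Mrps12, of the decoding centre, had 135, 141 and 135 FPKM in KO and 133, 155 and 162 FPKM in WT (log2 difference -0.12, adjusted p = 0.304). Both sets of values overlapped between groups, and with the genotype factors removed both genes passed as higher, at 0.55 and 0.46. Mrps16, counterpart of bacterial S16, had 329, 372 and 354 FPKM in KO and 254, 286 and 350.4 FPKM in WT. Its groups overlapped as deposited (log2 difference 0.25, adjusted p = 0.11), and it passed as higher under the other 3 scalings, at 0.69 to 0.84. Mrps31, a mitochondria-specific protein, had 110.3, 130.1 and 97.5 FPKM in KO and 151, 187 and 214 FPKM in WT. It fell by 0.70 on the log2 scale (adjusted p = 0.00474), with no overlap, but passed under no other scaling. The 9 other small-subunit genes that fell had log2 changes of -0.65 to -0.24, and the 6 others that did not pass had differences of -0.20 to 0.35.

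The 3 Mrps18 genes, related copies of one bacterial protein that occupy different sites, did not move alike. Mrps18a, whose protein sits in the large subunit, had 152, 171 and 163 FPKM in KO and 230.0, 252 and 266 FPKM in WT (log2 change -0.62, adjusted p = 0.000777). Mrps18b had 183, 231 and 192 FPKM in KO and 268, 264 and 326 FPKM in WT (log2 change -0.50, adjusted p = 0.00849). Both stood below WT in every library as deposited; with the factors removed they were at -0.04 and 0.08 and did not pass. Mrps18c, the most abundant of them, had 484, 605 and 506 FPKM in KO and 466, 573 and 586 FPKM in WT, overlapping between groups (log2 difference -0.03, adjusted p = 0.868), and it passed as higher with the factors removed (0.56). The differences between the 3 genes were not tested. Mrps30, also built into the large subunit, had 47.5, 45.2 and 55.0 FPKM in KO and 58.2, 55.6 and 59.2 FPKM in WT (adjusted p = 0.0865), and passed as higher with the factors removed (0.34). Mrps36, now known as a component of the 2-oxoglutarate dehydrogenase complex and not of the ribosome, had 834, 873 and 866 FPKM in KO and 868, 863 and 1018 FPKM in WT. Its groups overlapped (log2 difference -0.09, adjusted p = 0.408), and it was called higher with the factors removed (0.49). For Mrps36, 3 pseudogenes are annotated, which could draw its reads. The same limit holds for Mrpl23 and Mrpl48, with 1 annotated pseudogene each.

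**Figure D3:**
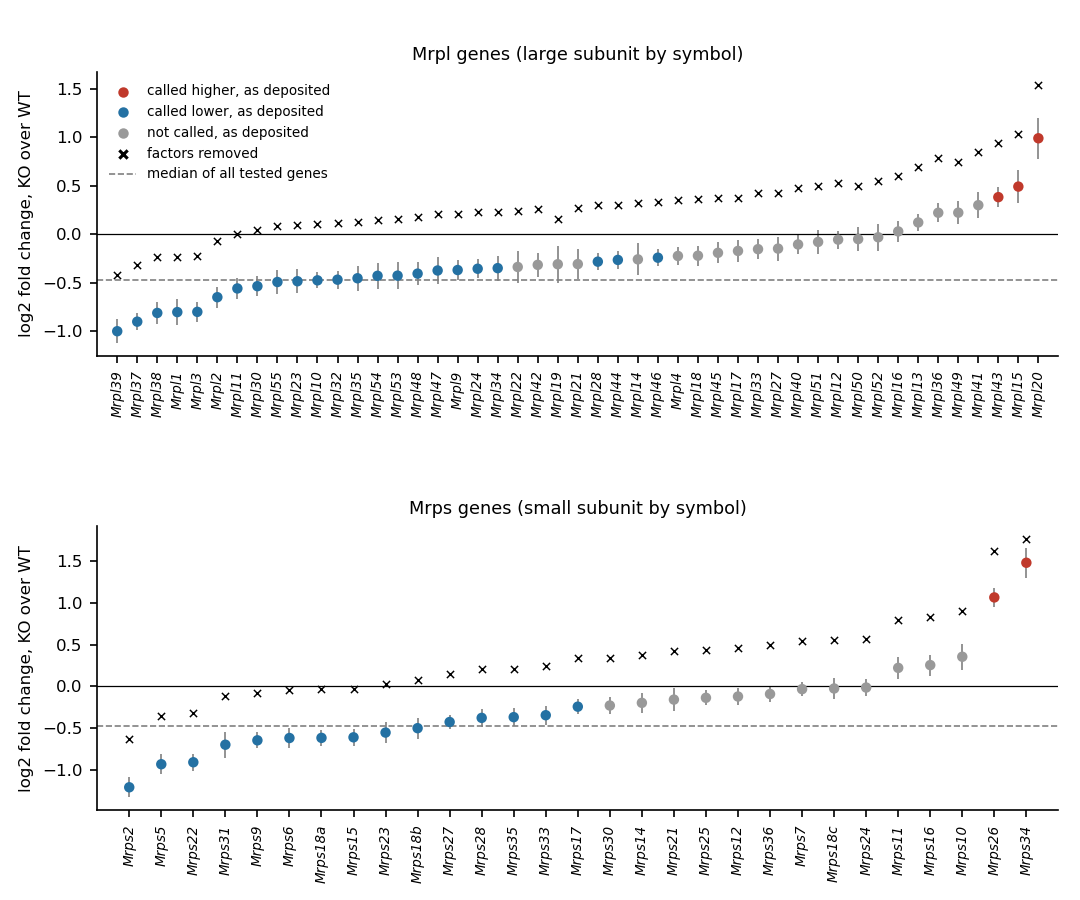
Log2 fold change, KO over WT, of each of the 76 genes as deposited, by subunit, with bars of 1 SE; red points were called higher, blue lower and grey neither, and crosses give the value with the genotype factors removed. Deposited values run from -1.21 (Mrps2) to 1.48 (Mrps34), and the dashed line marks the median of all tested genes at -0.47.

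Large- and small-subunit genes had close medians. Of 47 large-subunit genes 23 fell and 3 rose, with a median of -0.31, and of 29 small-subunit genes 15 fell and 2 rose, with a median of -0.24, as deposited. Among all tested genes 54.0% fell and 9.29% rose. With the genotype factors removed the counts turned to 22 higher and 2 lower, and 15 higher and 3 lower, beside 25.7% higher and 18.0% lower among all genes. The number of large-subunit genes that fell was 13 without KO replicate 1, 15 without KO replicate 3 and 13 without WT replicate 2, where 47.9%, 47.8% and 46.6% of all genes fell. The number that rose was 1 in the large subunit without KO replicate 1 (6.54% of all genes) and 4 in the small subunit without WT replicate 3 (8.06%). Without the filter on low values 14 large-subunit genes fell (25.0% of all genes), and with a mean of at least 10 FPKM only Mrps26 rose in the small subunit (6.74%). Summed FPKM of the large subunit over that of the small subunit, which no common factor can change, was 1.41, 1.46 and 1.44 in KO and 1.48, 1.50 and 1.49 in WT. KO ratios all lay below WT ratios, at 0.964 of the WT mean. When Mrps18a and Mrps30 were counted with the large subunit and Mrps36 with neither, the ratios were 1.78, 1.83 and 1.84 in KO and 1.88, 1.87 and 1.88 in WT. Without the 3 highest genes of each subunit the ratios were 1.73, 1.74 and 1.77 in KO and 1.72, 1.77 and 1.75 in WT, which overlapped. The median large-subunit gene over the median small-subunit gene was 0.934, 0.960 and 0.938 in KO and 1.10, 0.990 and 1.05 in WT, again with no overlap, so whether the groups separate depends on the measure. With 3 libraries a group the smallest p of an exact two-sided permutation test is 0.1, so none is given.

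**Figure D4:**
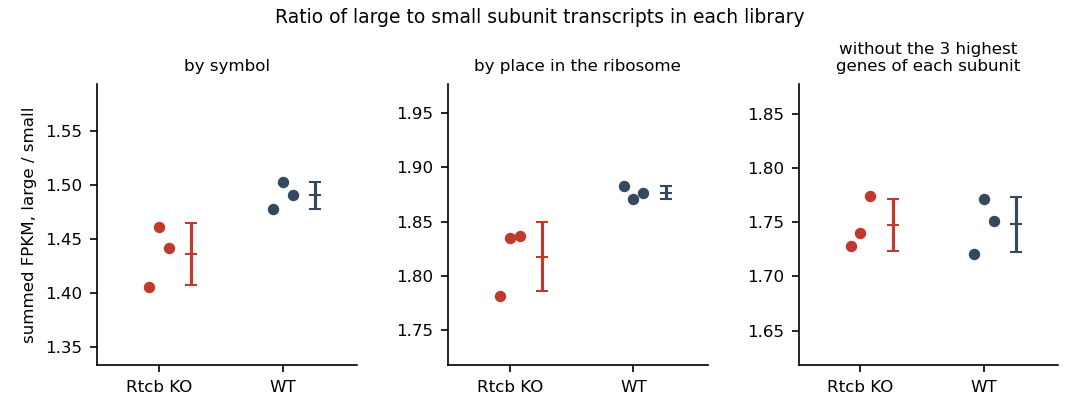
Summed large-subunit over summed small-subunit FPKM for each library, KO left of WT, by symbol, by place in the ribosome, and by symbol without the 3 highest genes of each subunit. Points are libraries, bars beside them mean ± SD (n = 3), and the axes do not start at 0; by symbol KO lies at 1.41 to 1.46 and WT at 1.48 to 1.50, while without the highest genes the groups overlap.

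By origin, 21 of 45 genes with a bacterial counterpart fell and 2 rose (median -0.28), and 17 of 30 mitochondria-specific genes fell and 3 rose (median -0.33), near the 54.0% lower and 9.29% higher of all tested genes. With the genotype factors removed, 22 of the first were higher and 2 lower, and 14 of the second were higher and 3 lower, beside 25.7% and 18.0% of all genes. Genes with longer coding parts had lower fold changes. The rank correlation of coding length (GENCODE vM21) with log2 fold change was -0.43 across the 76 genes and -0.28 across 10188 tested genes that have a value. It was the strongest of 5 properties examined. Across the 76 genes whole transcript length gave -0.12, length of the 3' untranslated part 0.081, GC percent 0.055 and mean log2 level -0.088. Genes are not independent replicates. The median tested gene, at 1374 coding bases, is longer than any of the 76, and the background shares given below cover genes of every length. Of the 25 longest of the 76, with 762 to 1326 coding bases, 20 fell and 1 rose (median -0.50). Of the 25 shortest, with 195 to 480 coding bases, 8 fell and 2 rose (median -0.16), and of the 26 between, 10 fell and 2 rose (median -0.20), where 54.0% of all tested genes fell and 9.29% rose. With the genotype factors removed the counts turned, to 7 higher and 5 lower among the longest (median 0.081), 16 higher and 0 lower among the shortest (median 0.42) and 14 higher and 0 lower among those between (median 0.37), beside 25.7% higher and 18.0% lower among all genes. The rank correlation was then -0.45 across the 76 genes and -0.32 across all genes. Mrps2, Mrps5, Mrpl37, Mrps22 and Mrpl39, described above as the genes that fell under every scaling, are among the longest. So are Mrpl15 (885 bases), which rose, and Mrpl19 (876), Mrpl45 (918) and Mrps30 (1326), which did not pass as deposited. The part of transcript integrity or library chemistry in the relation to coding length was not tested.

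**Figure D5:**
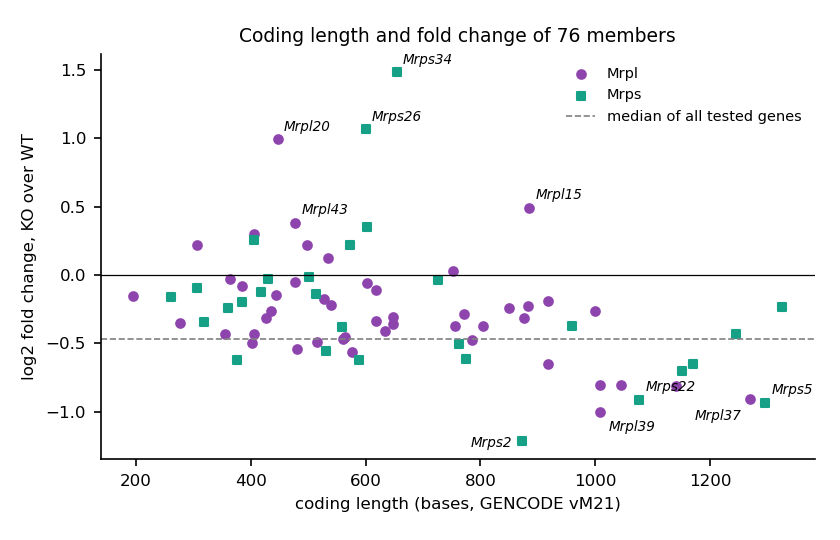
Log2 fold change, KO over WT, as deposited, against coding length in bases for 76 genes, with Mrpl as circles and Mrps as squares; the dashed line is the median of all tested genes. The longest genes lie mostly below 0, with a rank correlation of -0.43.

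Promoter windows were found for 67 of the 76 genes (73 windows, since a gene may have several starts). On both strands, the NRF1 motif (the letters in capitals in the Mrpl39 window) was in 4.11% of them, against 2.06% of windows of tested genes and 0.971% of all promoters in the table. CCGGAAGT (ETS) was in 16.4%, against 8.01% and 3.89%, and AAGATGGC (YY1) in 16.4%, against 4.39% and 2.75%. At least 1 motif was present in 34.2% of windows, against 13.9% and 7.32%. The 25 genes with a motif had a median log2 change of -0.16 (2 rose, 10 fell), and the 42 without one had -0.32 (1 rose, 24 fell), beside 9.29% higher and 54.0% lower among all tested genes. With the genotype factors removed the counts turned to 14 higher and 3 lower with a motif and 19 higher and 2 lower without, beside 25.7% and 18.0% of all genes.

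Genes that build and serve the mitochondrial ribosome also moved in both directions, and the counts as deposited stand beside 54.0% lower and 9.29% higher among all tested genes. Of 7 mitoribosome proteins under other symbols, 5 fell and none rose; Ptcd3, a small-subunit protein at the mRNA entrance, fell by 1.09 on the log2 scale, with 15.4 ± 1.89 FPKM in KO and 33.8 ± 2.37 FPKM in WT (SD, n = 3 each). Of 15 mitochondrial translation factors, 10 fell and none rose, led by Gfm2, a factor that splits ribosomes after translation, with 10.4, 12.9 and 9.22 FPKM in KO and 37.5, 29.3 and 27.6 FPKM in WT (log2 change -1.45). Every KO value lay below every WT value. Of 26 assembly and rRNA modification genes, 4 rose and 11 fell. Among the 4 that rose, Ftsj2 and Rnmtl1 had every WT value under 1 FPKM, so they entered the test only through their KO values. Ftsj2, now Mrm2, a methyltransferase of the large rRNA, had 4.14, 2.70 and 2.50 FPKM in KO and 0.406, 0.839 and 0.863 FPKM in WT (log2 change 1.26), and Gtpbp10, a GTPase of large-subunit assembly, fell by 1.31. Of 22 tested genes of mitochondrial DNA transcription and RNA processing, 4 rose and 12 fell. Polg2, in that list although it is the accessory subunit of the mitochondrial DNA polymerase, rose by 1.49 with 12.9, 8.998 and 13.2 FPKM in KO and 4.18, 3.70 and 2.61 FPKM in WT. Lrpprc, which stabilises mitochondrial mRNAs, fell by 1.52 with 8.34, 10.2 and 7.34 FPKM in KO and 30.3, 23.8 and 25.8 FPKM in WT. With the genotype factors removed, 2 of the other ribosome proteins were higher and 1 lower, 0 translation factors were higher and 2 lower, 11 assembly genes were higher and 4 lower, and 7 transcription and processing genes were higher and 5 lower, beside 25.7% higher and 18.0% lower among all genes.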

How the data were processed

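Polyadenylated RNA of 3 Rtcb KO and 3 WT oocyte libraries, grouped by genotype in the labels, was made into cDNA with Smart-seq2 (oligo-dT primed, full length, unstranded) with ERCC spike-ins, per the labels' protocols. Deposited values are FPKM by gene symbol, scaled by the authors to the spike-ins. Build mm9, Cufflinks 2.2.1 and TopHat2 2.1.1 are named, per the submitters' processing notes; the annotation is not stated in the sources used. Dividing by 4/3 in KO and 2 in WT gave numbers of 6 significant digits for 100% of values of at least 1 (tolerance 0.01 of the last digit; 207 fractions tried, next best 76.8%). Read counts and depth are unknown.

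Genes averaging 1 FPKM or more entered limma 3.58.1 (R 4.3.3; eBayes with trend) as log2(FPKM + 1), two-sided, Benjamini-Hochberg adjusted; the step was tested on simulated data. Members and lists were chosen with earlier results of these data known. Genes named were 12 fixed members and up to 4 largest called rises and falls per subunit without overlap. Also named were the highest and lowest gene per subunit, and the largest rise and fall of each other list. Other genes are named only as called sets, as exon-sharing neighbours or to state a limit. Alternatives were pseudocounts of 0.1 and 5, no filter, a mean of at least 10 FPKM, a replicate block, no trend, omission of each library, 3 rescalings, subunits by structure, and, added after seeing the data, ratios without the 3 highest genes. Gene properties came from GENCODE vM21 (mm10) and windows from RefSeq; no coordinates are compared with the mm9 values. Python 3.11.15, pandas 2.3.3, numpy 2.4.6 and matplotlib 3.10.9 were used.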

Additional observations from a re-analysis of the deposited data

How the results depend on the processing

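Scaling decided most directions. With equal totals, median ratios and the genotype factors removed, large-subunit genes called lower numbered 5, 2 and 2 and those called higher 13, 20 and 22. Small-subunit genes called lower numbered 3, 3 and 3 and higher 11, 12 and 15. Among all tested genes 25.8%, 21.2% and 18.0% were lower and 19.0%, 23.4% and 25.7% higher. The medians turned to 0.12, 0.21 and 0.27 for the large subunit and 0.19, 0.28 and 0.34 for the small subunit. In the same order of scalings, log2 differences turned positive for Mrpl12 (0.37, 0.47, 0.53), Mrpl19 (0.046, 0.12, 0.15), Mrpl44 (0.16, 0.25, 0.31), Mrpl45 (0.23, 0.32, 0.38), Mrpl48 (0.024, 0.12, 0.18), Mrps7 (0.40, 0.49, 0.55), Mrps12 (0.31, 0.40, 0.46), Mrps18c (0.41, 0.50, 0.56), Mrps30 (0.19, 0.29, 0.34) and Mrps36 (0.34, 0.43, 0.49), and for Mrps18b under median ratios and factors removed (0.022, 0.081). Without a filter 14 large-subunit genes were called lower, among 23235 tested, and with a mean of at least 10 FPKM 1 small-subunit gene was called higher, as Mrps34 was then not tested. Leaving out 1 library gave 13 to 26 large-subunit genes lower and 1 to 3 higher, 11 to 16 small-subunit genes lower and 2 to 4 higher, medians of -0.34 to -0.22 and -0.31 to -0.22, and a KO over WT subunit ratio of 0.955 to 0.974. Mrps18c then ranged from -0.13 to 0.038. That ratio was 0.995 from sums of log2 values and 0.9997 without the 3 highest genes of each subunit. The cause of these changes was not tested. Pseudocounts, the trend and subunits by structure left all subunit counts within 1.5 times. Same-numbered libraries deviated together at correlations of 0.14, -0.10 and 0.038, and differently numbered ones at -0.24 to 0.17. With 3 libraries a group this check cannot decide whether the numbers pair samples. A replicate block gave 22 lower and 3 higher large-subunit and 14 lower and 2 higher small-subunit genes. The share of all genes called with the block is not given here. Unknown depth leaves the counting error of low genes such as Mrps34 and Mrpl19 unknown.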
